A study of Mus musculus with 14 samples.

Results

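The genes described here were 10 markers of the principal cells of the mouse hippocampus, read in hippocampal tissue to see what each library held. They were chosen by symbol from a count table of 24421 genes: Prox1, C1ql2, Dsp and Tdo2 for the granule cells of the dentate gyrus, Wfs1, Fibcd1 and Mpped1 for the pyramidal cells of CA1, and Bok, Iyd and Cpne4 for the pyramidal cells of CA3. All 10 were found, and all 10 passed the filter on low counts that left 14897 genes to be tested. RNA came from 7 naive mice labelled LPAR2-/-, a knockout of the lysophosphatidic acid receptor 2, and from 7 naive wild-type (WT) mice, with 1 library per mouse. Males of strain 129.C57Bl6 were used for both genotypes. In this allele the latter part of exon 2 of the receptor gene is described as deleted. Knockouts and controls (mixed C57BL/6 and 129/SvJ) came from 2 colonies, so colony and genotype cannot be told apart. The labels put the mice at 10 to 12 weeks, whereas the deposited description calls them older, and their age is therefore not settled. The sample labels and the methods name the hippocampus as the tissue, and the results of the study name the dentate gyrus.

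The hippocampus passes signals along a chain of excitatory cells. Granule cells of the dentate gyrus send mossy fibres to CA3 pyramidal cells, whose Schaffer collaterals reach CA1, and CA1 in turn projects to the subiculum. Each of these cell types keeps its own set of transcription factors, synaptic proteins and enzymes in the adult, so that RNA of dissected tissue can carry a mixture of the sets. In such a mixture, fewer cells of a type and less RNA per cell cannot be told apart.

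The gene counts of a library summed to between 15434620 and 23258949 (median 19499276 in the mice labelled LPAR2-/- and 19964167 in WT mice). Lpar2 itself, counted on chromosome 8 from 69822565 to 69831102, had more counts in the libraries labelled LPAR2-/- (144 to 234) than in WT libraries (27 to 66), and counts of whole genes cannot show whether the deleted stretch was read. Every direction below therefore refers to the labels. CPM are counts scaled to a common library size, and RPKM are the same values per kilobase of the gene's exons. Fold changes are log2 differences, mice labelled LPAR2-/- minus WT, from edgeR's quasi-likelihood test with Benjamini-Hochberg adjustment over the 14897 genes.

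The sequences before the start sites of the 4 dentate gyrus markers are shown because 3 of them, Prox1, Dsp and Tdo2, varied together from mouse to mouse, with C1ql2 following less closely. They are the 250 bases upstream of the RefSeq start on GRCm38.p6 (mm10), written 5′ to 3′ on the strand of the gene. Capitals mark 3 motifs: the E-box CANNTG, the letters TATAAA on either strand and the letters CCAAT on either strand. The stretch of Tdo2 was chr3:81975729-81975978 (minus strand), that of Prox1 chr1:190170828-190171077 (minus strand), that of C1ql2 chr1:120340332-120340581 (plus strand) and that of Dsp chr13:38151044-38151293 (plus strand).
Tdo2: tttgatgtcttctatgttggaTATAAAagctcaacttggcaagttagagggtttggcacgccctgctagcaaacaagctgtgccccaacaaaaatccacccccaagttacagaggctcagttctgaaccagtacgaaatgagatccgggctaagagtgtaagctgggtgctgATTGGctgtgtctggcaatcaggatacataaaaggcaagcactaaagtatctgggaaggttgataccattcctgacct
Prox1: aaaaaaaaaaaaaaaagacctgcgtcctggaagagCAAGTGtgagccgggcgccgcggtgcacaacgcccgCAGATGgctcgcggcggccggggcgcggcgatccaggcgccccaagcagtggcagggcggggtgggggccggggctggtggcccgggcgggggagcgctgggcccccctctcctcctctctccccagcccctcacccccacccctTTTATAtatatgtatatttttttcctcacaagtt
C1ql2: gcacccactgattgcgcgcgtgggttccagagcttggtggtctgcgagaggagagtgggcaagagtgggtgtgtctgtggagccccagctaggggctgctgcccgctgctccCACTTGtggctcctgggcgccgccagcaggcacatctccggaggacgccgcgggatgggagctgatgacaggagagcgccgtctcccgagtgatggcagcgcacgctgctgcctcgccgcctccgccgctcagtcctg
Dsp: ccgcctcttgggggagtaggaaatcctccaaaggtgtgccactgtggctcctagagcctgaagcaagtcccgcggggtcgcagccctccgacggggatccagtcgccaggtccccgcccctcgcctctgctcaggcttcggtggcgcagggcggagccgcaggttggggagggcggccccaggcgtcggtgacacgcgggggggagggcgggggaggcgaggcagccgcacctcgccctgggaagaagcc
Prox1 held 2 E-boxes and C1ql2 held 1, and neither Dsp nor Tdo2 held any, where 66.2% of 32841 mouse promoters of this length hold at least 1. TATAAA was found once each in Prox1 and Tdo2 and in 12.4% of all promoters. CCAAT was found once, in Tdo2, and in 33.9% of all promoters. The GC content was 46.4% in Tdo2, against 64.8% in Prox1, 68.8% in C1ql2 and 72.4% in Dsp. No motif was shared by the 4 genes. The RefSeq start of Prox1 lay 147 bases from the start in the count table. These matches describe the letters of the window and were not tested for binding.

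All 10 markers were counted in every library, so markers of the dentate gyrus, CA1 and CA3 were present in every mouse. Their levels per length spanned a wider range between genes than between mice. C1ql2, which encodes a secreted C1q-like protein of the mossy fibre synapse, had the highest level with 101 ± 17.8 RPKM (SD, n = 14), above the other 9 markers in 14 of 14 mice and at percentile 96.5 of the tested genes. Cpne4, a calcium-dependent phospholipid-binding copine, came next with 49.1 ± 4.57 RPKM and was above the other 8 markers in 14 of 14 mice. Bok, a member of the BCL2 family, had 30.2 ± 9.77 RPKM and exceeded Dsp in 12 of 14 mice. Dsp (18.6 ± 3.34 RPKM) and Tdo2 (17.7 ± 4.04 RPKM) did not differ beyond their spread, with Dsp the higher in 9 of 14 mice. Wfs1 (12.8 ± 2.30 RPKM), Mpped1 (12.2 ± 8.22 RPKM), Prox1 (10.5 ± 1.39 RPKM) and Fibcd1 (9.04 ± 7.03 RPKM) overlapped, and Mpped1 was above Prox1 in 7 of 14 mice. Iyd, the deiodinase that recovers iodide from iodotyrosines, was the lowest in 14 of 14 mice with 3.65 ± 0.682 RPKM, at percentile 31.2. Levels of different subfields are not shares of cells, since each gene has its own level in its own cell type.

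Prox1, the homeobox transcription factor that maintains granule cell identity, was counted on chromosome 1 from 190121777 to 190170680. Its levels in the mice labelled LPAR2-/- were 46.1, 42.3, 39.4, 41.2, 39.6, 55.1 and 54.1 CPM (mice 1 to 7), and in WT mice 33.5, 44.2, 42.6, 42.9, 37.8, 45.2 and 43.3 CPM. Mice 6 and 7 labelled LPAR2-/- were the highest and WT mouse 1 was the lowest, and the other mice of both genotypes overlapped. The log2 fold change was 0.13 (standard error, SE, 0.0879, 95% interval -0.05 to 0.32, edgeR adjusted p = 0.396). C1ql2, on chromosome 1 from 120340582 to 120343174, had 156 to 263 CPM (median 196) in the mice labelled LPAR2-/- and 160 to 236 CPM (median 201) in WT mice. Its log2 fold change was 0.09 (95% interval -0.18 to 0.36, edgeR adjusted p = 0.733). Dsp, on chromosome 13 from 38151294 to 38198577, encodes desmoplakin, which ties intermediate filaments to desmosomes in epithelia and marks granule cells in the hippocampus. It had 143 to 234 CPM (median 191) and 127 to 217 CPM (median 167), a log2 fold change of 0.17 (95% interval -0.09 to 0.43, edgeR adjusted p = 0.444). None of these 3 genes passed the threshold, and their intervals leave room for changes of up to 0.43 on the log2 scale.

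Tdo2 was the one marker that passed the threshold, and it was higher under the LPAR2-/- label, which also went with more reads of Lpar2. It encodes tryptophan 2,3-dioxygenase, which opens the kynurenine pathway of tryptophan breakdown, and was counted on chromosome 3 from 81958414 to 81975728 (12 exons, minus strand). The mice labelled LPAR2-/- had 30.4, 35.7, 28.1, 30.5, 26.2, 40.4 and 42.9 CPM (mice 1 to 7). The WT mice had 20.04, 26.5, 25.9, 22.2, 23.2, 27.4 and 26.4 CPM. All 7 mice labelled LPAR2-/- lay above the WT median and 6 of 7 lay above the highest WT mouse, with mouse 5 the exception, so the ranges overlapped. The means were 33.4 ± 6.36 and 24.5 ± 2.74 CPM (SD, n = 7 each). Tdo2 rose by a log2 fold change of 0.45 (SE 0.109, 95% interval 0.21 to 0.68, edgeR adjusted p = 0.0244). The exact two-sided permutation test over all arrangements of 7 mice against 7 gave p = 0.00233 for Tdo2 alone. Over all genes 6.77% passed the same threshold (3.32% higher and 3.46% lower), and 1 of 10 markers is read against that share. An unadjusted p under 0.05 was found for 1 of 10 markers and for 22.4% of all genes, and ranges that did not overlap for 0 of 10 markers and for 1.77% of all genes. DESeq2 also called Tdo2 alone of the 10 (adjusted p = 0.00232), where it called 9.35% of all genes. The call was lost without WT mouse 4 (0.42, adjusted p = 0.0526) and without WT mouse 5 (0.43, adjusted p = 0.0535), and also without mice 6 and 7 labelled LPAR2-/-, which had the highest dentate gyrus markers (0.30, adjusted p = 0.0515, chosen after seeing the data, with 6.45% of all genes called).

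**Figure D1:**
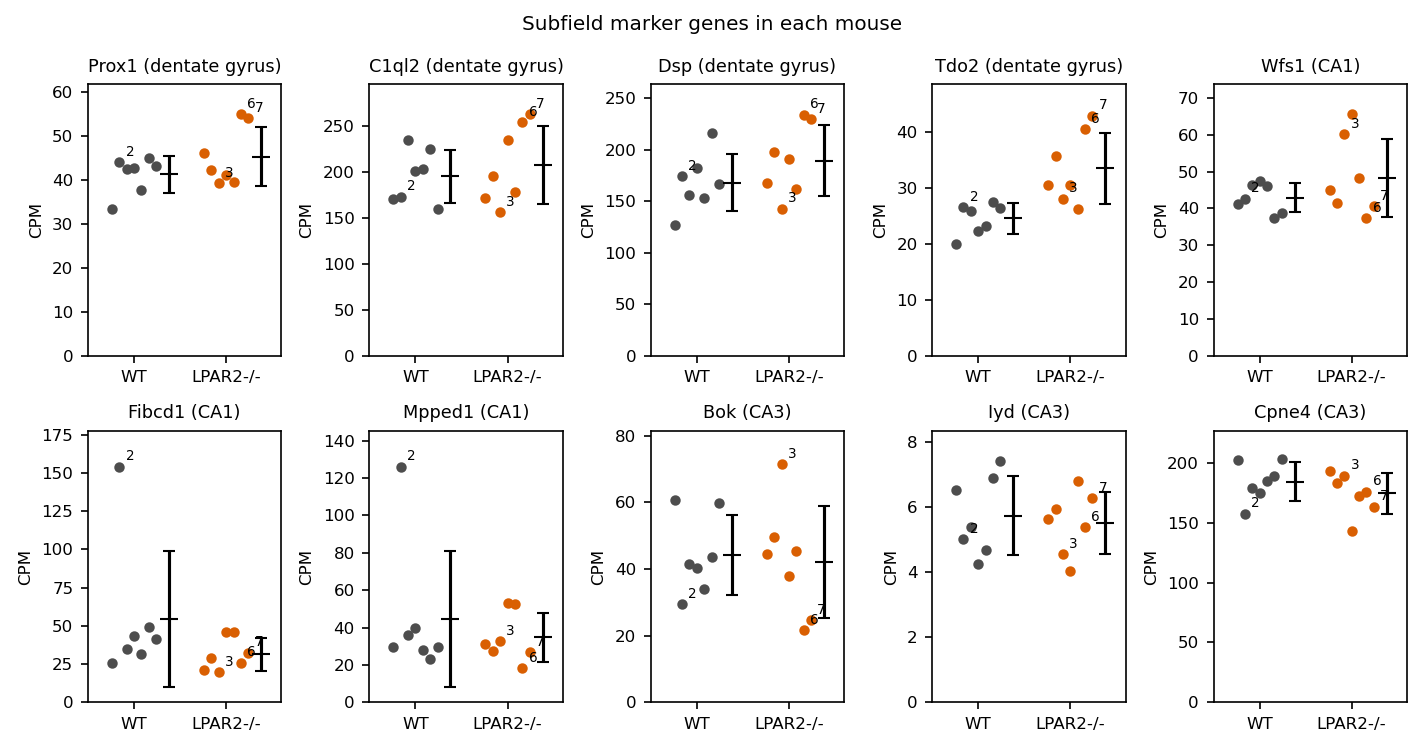
CPM of the 10 markers (vertical axes, each from 0) in 7 WT and 7 LPAR2-/- mice, with 1 point per mouse and the mean ± SD beside each group; WT mouse 2 and LPAR2-/- mice 3, 6 and 7 are numbered. Tdo2 lies between 26.2 and 42.9 CPM in the mice labelled LPAR2-/- and between 20.04 and 27.4 CPM in WT mice, and WT mouse 2 stands apart for Fibcd1 and Mpped1.

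Since Tdo2 varied with Prox1 and Dsp, its level was also set against theirs in each mouse. The log2 CPM of Tdo2 minus that of Prox1 was -0.45 ± 0.129 in the mice labelled LPAR2-/- and -0.75 ± 0.0867 in WT mice (SD, n = 7 each). On this scale 7 of 7 mice labelled LPAR2-/- lay above the highest WT mouse, and the share of all genes that would separate in this way was not counted. Relative to Dsp it was 5 of 7 mice, and relative to C1ql2 it was 3 of 7. With the mean log2 CPM of Prox1, C1ql2 and Dsp as a covariate in the edgeR fit, the difference of Tdo2 was 0.32 (adjusted p = 0.00549), a fit added after seeing the data in which 11.5% of all genes passed the threshold.

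Wfs1, which encodes wolframin of the endoplasmic reticulum membrane, was counted on chromosome 5 from 36966104 to 36988982. It had 37.4 to 65.5 CPM (median 44.98) in the mice labelled LPAR2-/- and 37.5 to 47.4 CPM (median 42.7) in WT mice. Mice 3 and 4 labelled LPAR2-/- were the highest with 60.2 and 65.5 CPM, and the genotypes overlapped otherwise. Its log2 fold change was 0.18 (95% interval -0.07 to 0.42, edgeR adjusted p = 0.393). The other CA1 markers behaved differently from Wfs1. Fibcd1, which encodes a membrane receptor for acetylated groups, was counted on chromosome 2 from 31813290 to 31846005. Its levels were 21.3, 28.9, 19.7, 46.0, 46.3, 26.0 and 32.4 CPM in the mice labelled LPAR2-/- and 25.6, 154, 34.8, 43.6, 31.8, 49.0 and 41.7 CPM in WT mice. WT mouse 2 was 4.75 times the median of the other 13 mice, whose levels overlapped between genotypes. Mpped1, a metallophosphoesterase domain gene on chromosome 15 from 83780023 to 83858474, had 31.3, 27.6, 32.7, 53.2, 52.8, 18.3 and 27.1 CPM in the mice labelled LPAR2-/-. It had 29.6, 126, 36.3, 39.7, 28.2, 23.4 and 29.6 CPM in WT mice, with the same mouse at 4.25 times the median of the others.

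Neither gene passed the threshold. For Fibcd1 the log2 fold change was -0.79 (SE 0.384, 95% interval -1.62 to 0.04, edgeR adjusted p = 0.244), and -0.26 without WT mouse 2 (adjusted p = 0.574). Mpped1 had -0.37 (SE 0.381, 95% interval -1.19 to 0.45, edgeR adjusted p = 0.619), and 0.16 without that mouse (adjusted p = 0.760), so the sign of its difference rested on 1 library. The coefficient of variation over the WT mice was 82.1% for Fibcd1 and 81.1% for Mpped1, and 22.7% and 18.8% without WT mouse 2. Counting error would give 3.93% and 4.07%. The sequences before these genes are shown because both stood out in the same mouse. They are again the 250 bases upstream of the RefSeq starts on mm10, chr2:31846006-31846255 (minus strand) for Fibcd1 and chr15:83779773-83780022 (plus strand) for Mpped1, and hold none of the 3 motifs.
Fibcd1: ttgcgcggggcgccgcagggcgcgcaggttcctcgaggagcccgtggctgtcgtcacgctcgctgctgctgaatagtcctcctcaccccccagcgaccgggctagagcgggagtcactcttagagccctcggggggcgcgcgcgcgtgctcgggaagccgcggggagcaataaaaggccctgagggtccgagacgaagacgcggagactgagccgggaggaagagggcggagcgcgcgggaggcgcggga
Mpped1: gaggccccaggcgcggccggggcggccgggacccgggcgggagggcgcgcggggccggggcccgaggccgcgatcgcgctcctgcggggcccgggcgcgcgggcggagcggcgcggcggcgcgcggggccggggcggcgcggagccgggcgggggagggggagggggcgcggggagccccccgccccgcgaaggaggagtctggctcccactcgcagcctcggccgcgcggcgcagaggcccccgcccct
The GC content was 71.6% for Fibcd1 and 88.8% for Mpped1. Nothing is drawn from the absence of these letters.

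WT mouse 2 also had the highest level of all 6 of 6 other genes listed for CA1. Nov, a secreted matricellular protein of the CCN family, had 73.6 CPM in this mouse and 1.37 to 19.3 CPM in the other 13. Pou3f1, a POU domain transcription factor, had 8.15 CPM against 1.37 to 5.16 CPM. The summed level of the 6 genes was 98.1 CPM in WT mouse 2, whereas it was between 6.26 and 26.3 CPM in the other WT mice and between 7.17 and 33.4 CPM in the mice labelled LPAR2-/-. Of 5 genes listed for the ventral hippocampus, 3 were highest in the same mouse, Dcn with 84.9 CPM (7.54 to 48.7 in the others), Htr2c with 33.0 CPM (1.09 to 21.7) and Etv1 with 37.96 CPM (13.9 to 26.0), whereas Trhr (14.7 CPM) and Nr2f2 (44.1 CPM) lay below the median of the others (20.2 and 47.5 CPM). Of 4 genes listed for the dorsal hippocampus, 2 were highest there as well, Cadps2 with 76.9 CPM (34.3 to 74.5 in the others) and Spink8, which is also on the CA1 list, with 5.14 CPM. Of 4 subiculum genes 1 was highest there, and Fn1 (47.2 CPM) lay below the median of the others (64.3 CPM). The dentate gyrus markers of WT mouse 2 lay within the range of the other 13 mice. Prox1 (44.2 CPM), Dsp (175 CPM) and Tdo2 (26.5 CPM) were near the medians of the others (42.6, 168 and 27.4 CPM). C1ql2 (173 CPM) was below the median of the others (201 CPM). What set this library apart was not tested. Leaving it out brought the number of genes called between the genotypes from 1009 to 567 (3.79% of those tested), with Tdo2 still the only marker called.

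**Figure D2:**
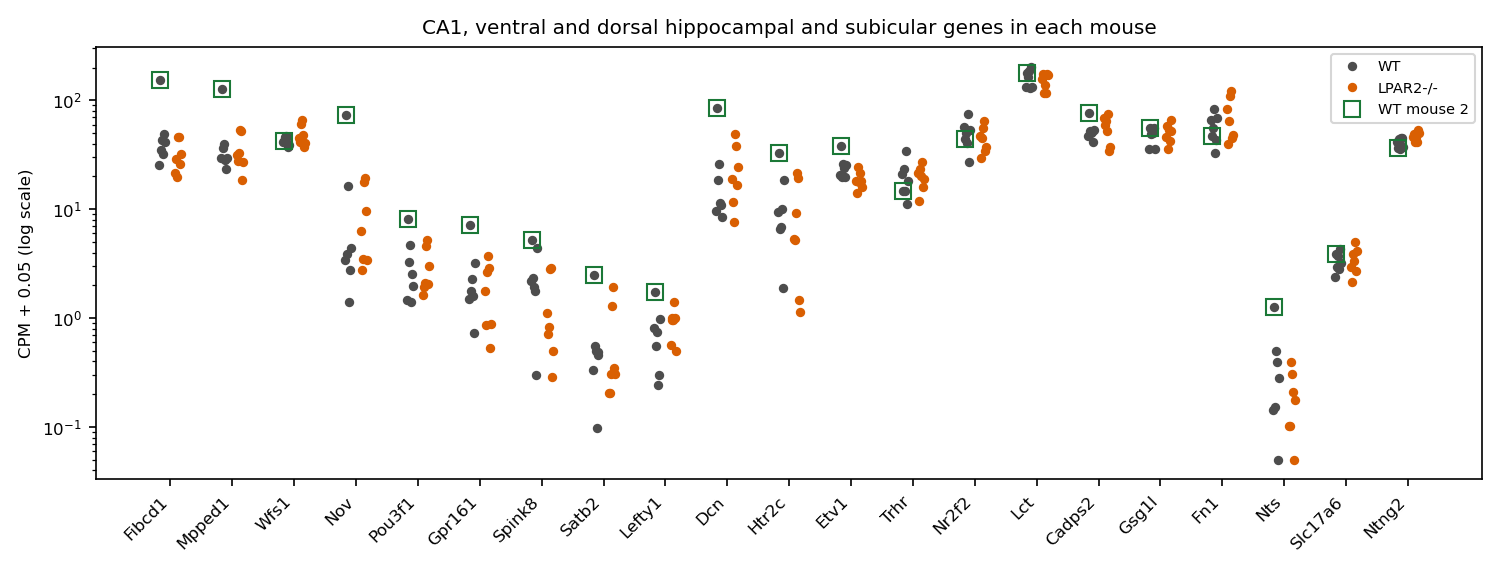
CPM plus 0.05 on a log axis for all genes of the CA1, ventral, dorsal and subiculum lists, with 1 point per mouse and WT mouse 2 boxed. WT mouse 2 has the highest point for 13 of the 21 genes drawn, with 154 CPM of Fibcd1 and 73.6 CPM of Nov, and lies within the range of the others for the remaining 8, among them Wfs1 (42.7 CPM).

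The CA3 markers differed between the genotypes by less than the spread between mice, and none passed the threshold. Bok, on chromosome 1 from 93685694 to 93695762, had 44.4, 49.5, 71.5, 37.99, 45.4, 21.7 and 24.6 CPM in the mice labelled LPAR2-/- and 60.7, 29.4, 41.7, 40.5, 34.0, 43.7 and 59.7 CPM in WT mice. Mice 6 and 7 labelled LPAR2-/-, the highest for Prox1, were the lowest for Bok. Mouse 3 of that group was the highest for Bok and the lowest for C1ql2 and Fibcd1. Its log2 fold change was -0.06 (95% interval -0.59 to 0.47, edgeR adjusted p = 0.917), the widest interval among the CA3 markers. Its sign rested on single libraries: Bok had -0.24 without mouse 3, 0.05 without mouse 6 and 0.03 without mouse 7 labelled LPAR2-/-, 0.03 without WT mouse 1, 0.02 without WT mouse 7, and 0.18 without both mice 6 and 7, with no call in any of these fits (adjusted p from 0.552 to 0.968). Iyd, on chromosome 10 from 3540279 to 3554877, had 4.05 to 6.79 CPM (median 5.64) in the mice labelled LPAR2-/- and 4.25 to 7.41 CPM (median 5.38) in WT mice. Its log2 fold change was -0.06 (95% interval -0.35 to 0.24, adjusted p = 0.855). Cpne4, on chromosome 9 from 104569788 to 105034544, had 143 to 193 CPM (median 176) and 157 to 203 CPM (median 184), with a log2 fold change of -0.08 (95% interval -0.22 to 0.06, adjusted p = 0.512). Cpne4 varied least, with coefficients of variation of 9.79% and 8.67%, and Bok most among the CA3 markers, with 39.7% in the mice labelled LPAR2-/- and 27.0% in WT mice.

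Mouse 3 labelled LPAR2-/- also held the most oligodendrocyte RNA. All 6 of 6 oligodendrocyte genes were highest there, with a summed level of 3878 CPM against 969 to 1944 CPM in the other mice labelled LPAR2-/- and 1201 to 2029 CPM in WT mice. Without this mouse the median log2 fold change of those genes turned from 0.14 to -0.26, with 0 of 6 called by edgeR in either case. That of Bok went from -0.06 to -0.24. The part of these cells in the level of Bok was not tested.

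**Figure D3:**
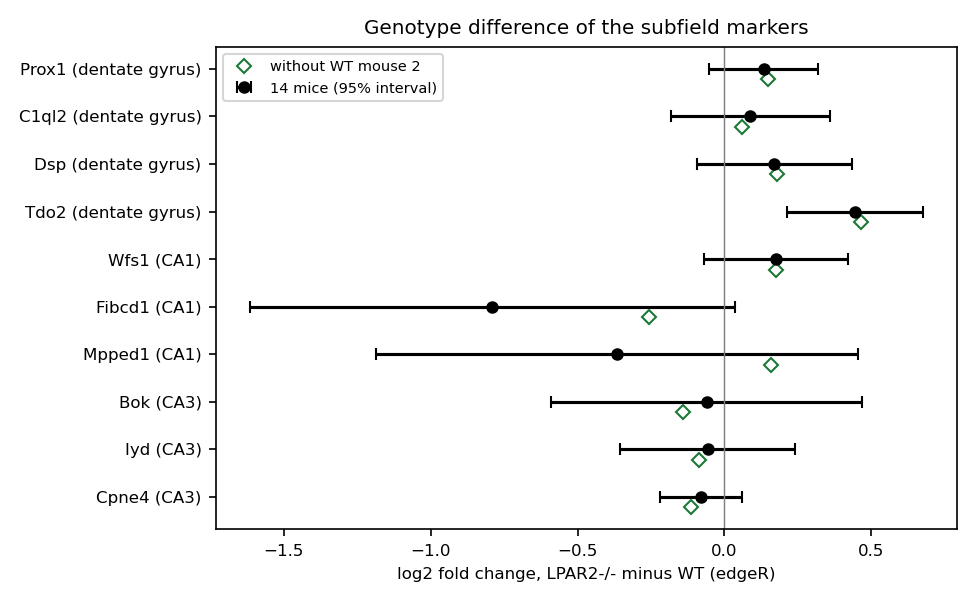
Log2 fold change (mice labelled LPAR2-/- minus WT, horizontal axis) of each marker from edgeR, with black points and 95% intervals for all 14 mice and open diamonds for the fit without WT mouse 2. The interval of Tdo2 (0.21 to 0.68) lies above 0, the other 9 intervals include 0, and the value of Mpped1 moves from -0.37 to 0.16.

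By subfield, 4 of 4 dentate gyrus markers had a log2 fold change above 0 (median 0.15), 1 of 3 CA1 markers did (median -0.37) and 0 of 3 CA3 markers did (median -0.06), where the median of all tested genes was 0.00. Without mice 6 and 7 labelled LPAR2-/-, the dentate gyrus median was 0.03 and 3 of 4 markers were above 0, with C1ql2 at -0.06. Without WT mouse 2, the CA1 median was 0.16 and 2 of 3 CA1 markers were above 0. The balance of the subfields was taken in each mouse as the mean log2 CPM of the dentate gyrus markers minus that of the CA1 or the CA3 markers. It is a description and carries no test. For the dentate gyrus minus CA1 it was 1.27 ± 0.530 in the mice labelled LPAR2-/- (lowest 0.59, median 1.36, highest 2.04) and 0.853 ± 0.523 in WT mice (lowest -0.28, median 1.03, highest 1.33). WT mouse 2 was the lowest of all and mouse 6 labelled LPAR2-/- the highest. For the dentate gyrus minus CA3 it was 1.37 ± 0.451 (lowest 0.83, median 1.21, highest 1.96) and 1.084 ± 0.332 (lowest 0.51, median 1.21, highest 1.43), with WT mouse 1 the lowest and mouse 6 labelled LPAR2-/- the highest. The differences of the means were 0.42 and 0.29, less than the SD within either genotype. Without mice 6 and 7 labelled LPAR2-/- they were 0.17 and 0.06, and without WT mouse 2 the former was 0.23. For CA1 minus CA3 the difference was -0.13, and 0.12 without WT mouse 2.

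**Figure D4:**
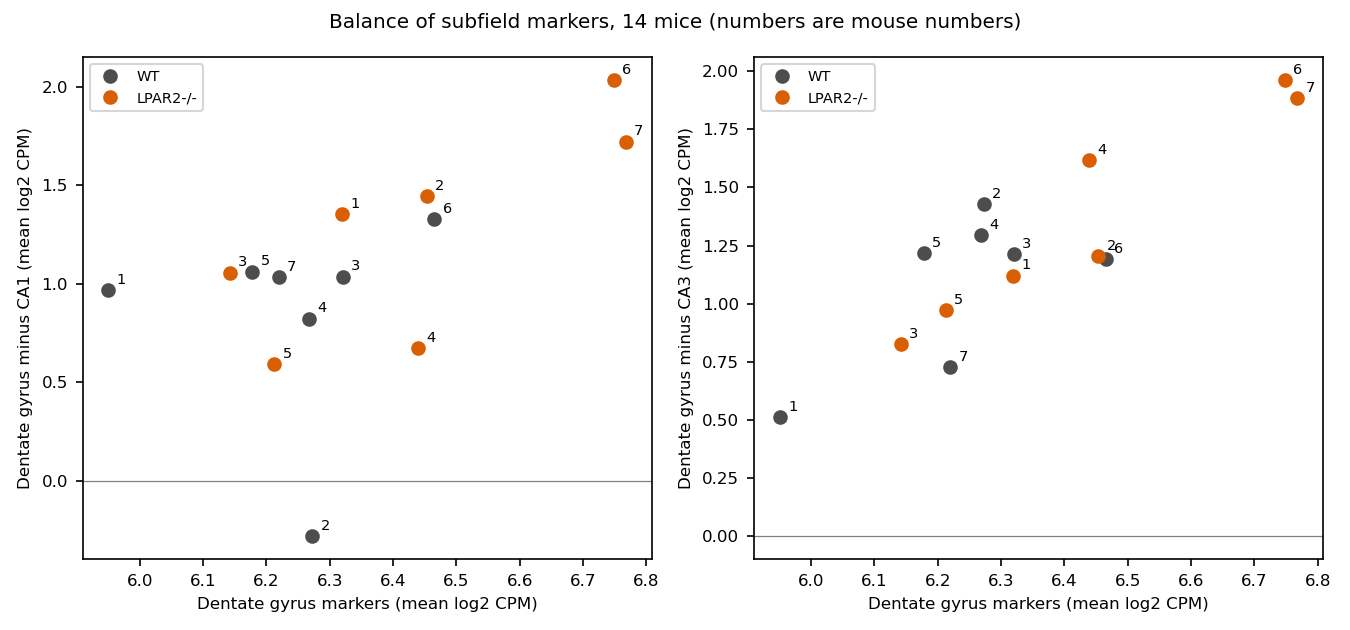
Mean log2 CPM of the 4 dentate gyrus markers (horizontal axes) against the dentate gyrus minus CA1 balance (left) and minus CA3 balance (right), with 1 numbered point per mouse; both axes share the dentate gyrus level. LPAR2-/- mice 6 and 7 lie at the upper right in both panels, and WT mouse 2 lies at -0.28 in the left one.

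Markers of 1 subfield varied together between mice in part. Over the 14 mice, after the genotype means had been subtracted, 45 pairs of markers were correlated, with permutation p-values from 100000 resamples adjusted over the 45 pairs. The adjusted p was under 0.05 for 10 pairs: 5 of 12 within a subfield, all 5 positive, and 5 of 33 between subfields, all 5 negative. By rank correlation it was 3 pairs. These 3 were Prox1 with Tdo2 (r = 0.87, permutation p = 0.000660, adjusted p = 0.0118, rho = 0.86, permutation p = 0.000340, adjusted p = 0.00765), Prox1 with Dsp (r = 0.84, permutation p = 0.000360, adjusted p = 0.0118, rho = 0.85, permutation p = 0.000160, adjusted p = 0.00720) and Dsp with Tdo2 (r = 0.82, permutation p = 0.000790, adjusted p = 0.0118, rho = 0.82, permutation p = 0.00147, adjusted p = 0.0220). Without the 2 mice farthest from the median of the former gene, r was 0.82, 0.75 and 0.76. Within the genotypes, Prox1 with Tdo2 had r = 0.88 in the mice labelled LPAR2-/- and 0.86 in WT mice. C1ql2 followed the others less closely: with Dsp r was 0.71 (permutation adjusted p = 0.0492, rho = 0.69, adjusted p = 0.0684) and 0.57 without the 2 farthest mice. Its r with Dsp was 0.94 in the mice labelled LPAR2-/- and 0.38 in WT mice, a difference that was not tested.

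Among the CA1 markers, Fibcd1 and Mpped1 had r = 0.81 (permutation adjusted p = 0.0492), but rho was 0.45 (adjusted p = 0.237) and r was 0.48 without WT mouse 2, so that this relation rested on that mouse. Wfs1 and Mpped1 had r = 0.46 (permutation adjusted p = 0.147) and rho = 0.66 (permutation adjusted p = 0.0684), and r was 0.76 without WT mouse 2, 0.75 within the mice labelled LPAR2-/- and 0.23 within the WT mice. Wfs1 and Fibcd1 had r = 0.06 (permutation adjusted p = 0.841). No pair of CA3 markers passed: Bok with Cpne4 had r = 0.58 (permutation adjusted p = 0.137), Iyd with Cpne4 0.53 (0.147) and Bok with Iyd 0.18 (0.665). Between subfields, Bok was negatively correlated with 3 dentate gyrus markers. Its r was -0.72 with Prox1, -0.73 with C1ql2 and -0.69 with Dsp (permutation adjusted p = 0.0492 each). With Tdo2 it was -0.65 and did not pass (permutation adjusted p = 0.106), and by rank no pair with Bok passed (permutation adjusted p from 0.0516 to 0.867). Without the 2 mice farthest from the median of the dentate gyrus gene these were -0.57, -0.58 and -0.49. Within the WT mice they were -0.36, -0.35 and -0.34, against -0.89, -0.91 and -0.91 in the mice labelled LPAR2-/-. The remaining negative pairs were Wfs1 with Iyd (r = -0.71, permutation adjusted p = 0.0279) and Fibcd1 with Cpne4 (r = -0.75, permutation adjusted p = 0.0201), at -0.55 and -0.63 without the 2 farthest mice. CPM share a fixed total in each library, which bears on all of these pairs.

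**Figure D5:**
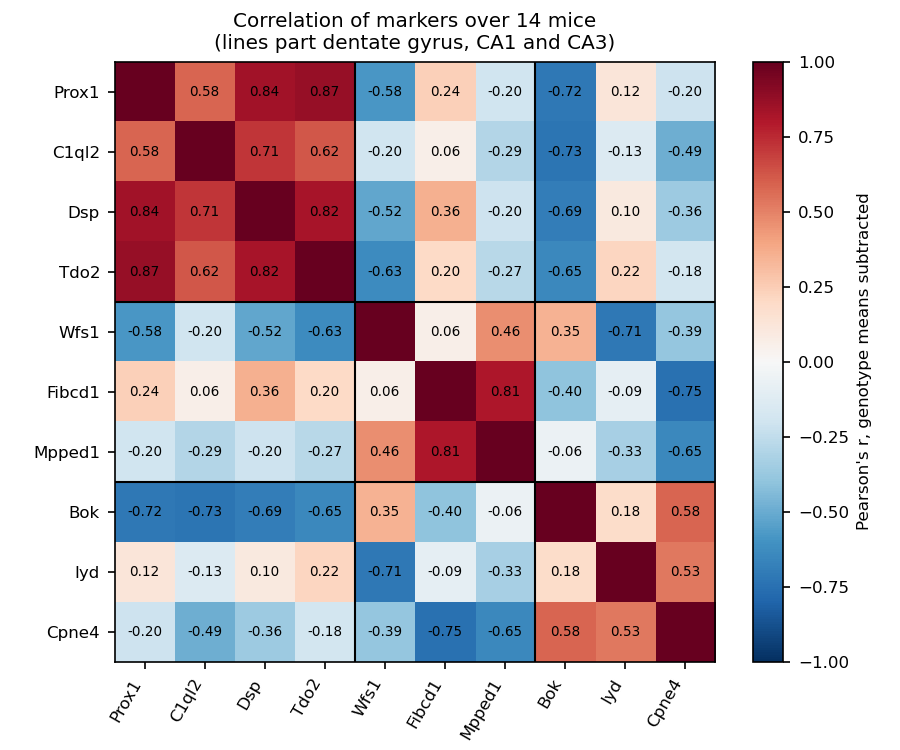
Pearson's r of log2 CPM over 14 mice for each pair of the 10 markers, genotype means subtracted, from blue (-1) to red (1), with lines parting dentate gyrus, CA1 and CA3. Prox1, Dsp and Tdo2 have r between 0.82 and 0.87 with one another, and Bok has r between -0.65 and -0.73 with the 4 dentate gyrus markers.

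The genes most like each marker were taken as the 3 with the highest r over the 14 mice, genotype means subtracted, among all tested genes, and are given without a p. For Prox1 they were Ercc6l2, Ermp1 and Zzz3 (r = 0.95 each), and for Tdo2 they were Srrm1 (0.92), Elk1 (0.91) and Ermp1 (0.89), so that Ermp1, a metallopeptidase of the endoplasmic reticulum, stood in both sets. For Dsp they were Neurod2 (0.94), Atf6 (0.93) and Ankrd13a (0.93), of which Neurod2 is a transcription factor of excitatory neurons. For C1ql2 they were Igsf8 (0.94), Gnptg (0.93) and Dvl2 (0.92). For Fibcd1 they were Pou3f1 (0.87), Plxna2 (0.86) and Hspbap1 (0.85), and for Mpped1 Adgrl2 (0.94), Nxph3 (0.93) and Ptpru (0.89). Pou3f1 was also a listed CA1 gene. For Wfs1 they were Bcl7c (0.95), Snx21 (0.93) and Pkhd1l1 (0.90). For Bok they were Klk8 (0.98), Tspan17 (0.97) and Camk1d (0.96), for Iyd Cetn3 (0.90), Mpv17l (0.87) and Exoc1 (0.85), and for Cpne4 Asph (0.91), Usp22 (0.89) and Srp54a (0.88). With 14897 genes to choose from, high values arise in such a search.

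Other genes of the hippocampal fields were counted by list, 120 genes in 19 lists with those of other tissues and cell types, of which 113 were tested and 8 passed, a share close to the 6.77% of all genes called. None of 10 other dentate gyrus genes passed by edgeR or DESeq2, and their median log2 fold change was 0.00. An unadjusted p under 0.05 was found for 1 of the 10 and for 22.4% of all genes. Stxbp6, a syntaxin-binding protein, had 336 ± 60.9 CPM in the mice labelled LPAR2-/- and 330 ± 49.5 CPM in WT mice, and Calb1, the calcium buffer calbindin, had 327 ± 68.2 and 331 ± 34.4 CPM (SD, n = 7 each). In the single libraries these genes went with the markers: 4 of the 10 were highest in mouse 6 and 3 in mouse 7 labelled LPAR2-/-, and their summed level was 2408 and 2369 CPM there against 1559 to 1946 CPM in the other 5 mice of that group. WT mice lay between 1622 and 2291 CPM. For CA1, 0 of 5 tested genes of 6 passed by edgeR or DESeq2, and 0 had an unadjusted p under 0.05. Their median was -0.44, and 0.20 without WT mouse 2, so its sign rested on that library.

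The 8 other CA3 genes had a median log2 fold change of -0.21. Rnf182, a ubiquitin ligase, had 53.4 ± 3.64 and 64.1 ± 5.18 CPM and fell by 0.26 in the mice labelled LPAR2-/- (SE 0.0560, edgeR adjusted p = 0.0121). It passed in all 14 fits without 1 mouse. In WT mouse 7, which was the highest for Iyd and Cpne4, 4 of these 8 genes were highest too.

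Of 7 CA2 genes, 3 passed by edgeR and 3 by DESeq2 (median -0.16), where these tools called 6.77% and 9.35% of all genes. Cacng5, an auxiliary subunit of AMPA receptors, had 20.3 ± 1.33 and 14.5 ± 3.08 CPM and rose by 0.49 (edgeR adjusted p = 0.0124), also in all 14 fits without 1 mouse. Rgs14, a regulator of G protein signalling, had 102 ± 13.8 and 83.1 ± 5.87 CPM and rose by 0.29 (adjusted p = 0.0316). It passed in 6 of those 14 fits and was lost without mouse 1, 2, 6 or 7 labelled LPAR2-/- or WT mouse 2, 3, 4 or 7 (highest adjusted p 0.0691). Stard5, a sterol-binding protein, had 18.02 ± 2.68 and 23.02 ± 2.78 CPM and fell by 0.36 (adjusted p = 0.0371). It passed in 5 of the 14 fits and was lost without mouse 1, 2, 4 or 5 labelled LPAR2-/- or WT mouse 2, 3, 4, 5 or 6 (highest adjusted p 0.0844).

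No gene of the remaining hippocampal lists passed by edgeR or DESeq2. Their counts of an unadjusted p under 0.05 are read against the 22.4% of all genes with such a p. The 5 hilar mossy cell genes had a median log2 fold change of 0.26 (2 with an unadjusted p under 0.05), with Calb2 at 98.9 CPM in the mice labelled LPAR2-/- and 106 CPM in WT mice and Csf2rb2 at 14.8 and 12.7 CPM. The 3 tested of 4 subiculum genes had a median of 0.20 (1 with an unadjusted p under 0.05), with Fn1 at 73.1 and 56.6 CPM and Ntng2 at 46.7 and 40.7 CPM. The 4 dorsal hippocampus genes had a median of -0.02 (0 with an unadjusted p under 0.05), with Lct at 150.2 and 161 CPM and Cadps2 at 55.8 and 53.3 CPM. The 5 ventral hippocampus genes had a median of -0.14 (1 with an unadjusted p under 0.05), with Nr2f2 at 44.9 and 49.4 CPM and Dcn at 23.7 and 24.2 CPM.

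Markers of neighbouring tissue were counted to see what else the libraries held. The summed level of 7 thalamus genes was 61.5 to 99.5 CPM in the mice labelled LPAR2-/- and 66.6 to 98.7 CPM in WT mice, with 0 of 6 tested genes called by edgeR or DESeq2 and 0 with an unadjusted p under 0.05 (median log2 fold change -0.04). Rora and Prkcd were the most abundant of them, with 27.1 and 27.0 CPM and 23.8 and 23.2 CPM. That of 7 striatum genes was 72.8 to 85.0 CPM in the mice labelled LPAR2-/- and 63.8 to 71.9 CPM in WT mice. These ranges of the sum did not overlap, and among all single genes this held for 1.77%. Of 6 tested striatum genes, 0 were called by edgeR (6.77% of all genes) and 1 by DESeq2 (9.35% of all genes). An unadjusted p under 0.05 was found for 3 of them (22.4% of all genes), and the median log2 fold change was 0.18. The most abundant striatum genes were Ppp1r1b (31.2 and 27.5 CPM) and Rgs9 (26.3 and 23.3 CPM). Of 7 neocortex genes, 1 passed by edgeR (6.77% of all genes), 2 by DESeq2 (9.35% of all genes), and 3 had an unadjusted p under 0.05 (22.4% of all genes). Rasgrf2 passed by both tools and Rspo1 by DESeq2 alone (edgeR adjusted p = 0.0633). Rasgrf2, an exchange factor for Ras that hippocampal cells also express, had 205 ± 26.5 and 173 ± 8.41 CPM and rose by 0.24 (adjusted p = 0.0435), in 4 of 14 fits without 1 mouse (highest adjusted p 0.0863). It was lost without mouse 1, 2, 6 or 7 labelled LPAR2-/- or WT mouse 1, 2, 3, 4, 5 or 7. The neocortex list had a median of 0.23.

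Genes of tissue that adheres to the hippocampus differed between libraries, and those of the meninges also leaned higher under the LPAR2-/- label. The summed level of 7 choroid plexus genes was 288 CPM in mouse 2 labelled LPAR2-/-, 26.8 to 53.4 CPM in the other 6 and 29.0 to 34.3 CPM in WT mice. Ttr, the transthyretin of the choroid plexus, made up 242 CPM in that mouse and had 0.945 to 18.4 CPM in the other 13. Kl, the ageing-related membrane protein klotho, had 23.1 to 35.1 CPM over the 14 mice and made up most of the sum in each of the other 13. Of the 4 tested genes 0 passed by edgeR (6.77% of all genes), 1 by DESeq2 (9.35% of all genes), and 3 had an unadjusted p under 0.05 (22.4% of all genes; median log2 fold change 1.24 by edgeR and 0.70 by DESeq2). The summed level of 7 meningeal genes was 79.4 to 344 CPM (median 204) in the mice labelled LPAR2-/-. In WT mice it was 58.6 to 263 CPM (median 91.6). Mouse 5 labelled LPAR2-/- was the highest for 6 of 7 genes. Lum, the matrix proteoglycan lumican, had 10.9 ± 1.75 and 7.50 ± 1.25 CPM and rose by 0.54 (edgeR adjusted p = 0.0132) in all 14 fits without 1 mouse. With the mouse number as a block its call was lost (edgeR adjusted p = 0.0534). Of the 7 genes of the list, 1 passed by edgeR and 1 by DESeq2, 7 had a log2 fold change above 0, 6 had an unadjusted p under 0.05, against the same 22.4% of all genes, and the median was 1.00. The dentate gyrus markers were near the middle of their group in mouse 2 and in the lower part in mouse 5, with 42.3 and 39.6 CPM of Prox1 and 35.7 and 26.2 CPM of Tdo2. The part of these tissues in the level of Tdo2 was not tested.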

How the data were processed

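Hippocampal RNA of 14 male mice (7 labelled LPAR2-/- and 7 WT) was sequenced, with 1 library per mouse, and the groups were taken from the sample titles. Reads were trimmed with cutadapt 1.18 and aligned to mm10 with STAR according to the submitters' processing notes. The authors then made counts of reads on the exons of each gene (featureCounts 1.6.3, reverse strand, per the file header) and deposited them without normalization. A deposited table of normalized values (DESeq2 1.22.2, per the processing notes) was derived from the counts, had lost decimal points in part and was not used.

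The 10 markers and 19 further lists were chosen with earlier results of these data known. The lists were other dentate gyrus, other CA1, other CA3, CA2, hilar mossy cell, subiculum, dorsal hippocampus, ventral hippocampus, thalamus, striatum, neocortex, choroid plexus, meninges, pan-neuronal, interneuron, astrocyte, oligodendrocyte, microglia and endothelial genes. Named in the text were the 10 markers, list genes past the threshold or else the 2 with the highest mean CPM, the 3 genes most like each marker, and Lpar2. Results of a few list genes are not reported here. A few others (Nov, Pou3f1, Dcn, Htr2c, Etv1, Trhr, Spink8, Rbfox3, Ttr and Rspo1) were named after their values had been seen in single libraries.

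Genes were filtered with filterByExpr, scaled by TMM and tested with the robust quasi-likelihood test of edgeR 4.0.16 (R 4.3.3, limma 3.58.1) with genotype as the only term. Genes with a Benjamini-Hochberg adjusted p under 0.05 were called. Log2 CPM used a prior count of 2. Single genes were compared by exact permutation tests, and pairs of markers by 100000 permutations (Python 3.11.15, numpy 2.4.6, scipy 1.17.1). Depth was 15434620 to 23258949 counts per mouse, at which a count of 0 allows up to 3 counts (counting error only). Alternatives were DESeq2 1.42.0, RLE size factors, the upper quartile, other filters on low counts, a prior count of 0.5, the median of the markers of a subfield, genotype means kept, the mouse number as a block and each mouse left out. Tested on simulated data with 200 of 14897 genes changed, edgeR recovered 73% of those changed 1.5-fold and 97% of those changed 2-fold, with 6.59% of its calls on unchanged genes, and DESeq2 78% and 99%, with 12.8%. With no gene changed edgeR made 0 calls. Whether these rates hold for libraries in which a whole list of genes was highest together, such as WT mouse 2, was not tested. Nothing about the 1009 genes called is drawn from these rates. No 2 libraries of a genotype were copies (42 pairs, lowest chi-square per degree of freedom 3.41). Promoters were taken from RefSeq sequences on GRCm38.p6, in which 10 of 10 markers were found by symbol.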

Additional observations from a re-analysis of the deposited data

Results flagged for a closer look

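WT mouse 2 lay far from the other 6 WT mice in 4 measures, by the gap to its nearest neighbour as a share of the range of the group (Dixon's critical value 0.568 for 7 mice). Fibcd1 had 154 CPM in this mouse, and the next WT mouse had 49.0 CPM. Mpped1 had 126 CPM, and the next WT mouse had 39.7 CPM. The balance of dentate gyrus minus CA1 markers was -0.28 (log2), where the next lowest WT mouse had 0.82. The balance of CA1 minus CA3 markers was 1.71 (log2), where the next highest had 0.47. These 4 values share Fibcd1 and Mpped1 and are not independent of each other. Of 26 groups examined in this way 4 stood out, and chance flags about 1 in 20 groups. The cause was not tested.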

How the results depend on the processing

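Tdo2 was higher in the mice labelled LPAR2-/- under all alternatives run. It was called in all but the fits without WT mouse 4, without WT mouse 5 and without mice 6 and 7 of the other group (the last added after seeing the data), so that the number of markers called was 0 in these and 1 otherwise, a range of 0 to 1 with each mouse left out. Its exact permutation p with 1 mouse left out ranged from 0.000583 to 0.00699. Over all genes, 1009 were called (494 higher and 515 lower), against 586 (314 and 272) with a replicate block for the mouse number and 1708 (689 and 1019) with the dentate gyrus level as covariate. Leaving out each mouse gave 567 to 1385 (275 to 660 higher and 292 to 725 lower). Under upper quartile scaling 616 were higher and 377 lower, or 62.0% higher against 49.0%. Of the other list genes 8 passed, and 4 to 10 with each mouse left out. With the block 4 passed, and Rgs14, Stard5, Lum and Slco1c1 were lost. Of the correlations 10 passed, and 5 without WT mouse 2. Mice of the same number had r from -0.33 to 0.31 (3 of 7 above 0.1). Mice of different numbers were not compared in this way, so whether the numbers pair them is not settled. With the block, Tdo2 had a log2 fold change of 0.43 (edgeR adjusted p = 0.0109) and no other marker was called. In that fit the unadjusted edgeR p was 0.0269 for Dsp (adjusted p = 0.175) and 0.0358 for Wfs1 (adjusted p = 0.204). Why these counts moved was not tested. Depth limited Iyd most, where counting error alone gave a coefficient of variation of 9.70%. Whether markers report cell numbers cannot be told apart from RNA per cell, and the age of the mice is not settled.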

Other observations

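General cell type genes gave the frame for the subfield markers. None of 6 pan-neuronal genes passed by edgeR or DESeq2, and 0 had an unadjusted p under 0.05 (median log2 fold change -0.04), with Snap25 at 2321 ± 302 CPM in the mice labelled LPAR2-/- and 2402 ± 257 CPM in WT mice and Syt1 at 1302 ± 192 and 1333 ± 146 CPM. Mice 6 and 7 labelled LPAR2-/-, the highest for the dentate gyrus markers, had the lowest summed pan-neuronal levels of all 14 mice, 4725 and 4766 CPM, where the other 12 had 5098 to 6356 CPM. Within that list Rbfox3, the neuronal nuclear antigen NeuN, went the other way, with 400.2 CPM in mouse 6, its highest value, and 369 CPM in mouse 7. Of 6 interneuron genes 0 passed by either tool and 0 had an unadjusted p under 0.05 (median -0.09, Gad1 at 372 ± 21.0 and 395 ± 15.8 CPM and Gad2 at 117 ± 29.5 and 115 ± 9.73 CPM).

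Among glia and vessels, 0 of 7 astrocyte genes passed by edgeR or DESeq2, and 0 had an unadjusted p under 0.05 (median -0.05, Slc1a2 at 2746 ± 125 and 2891 ± 151 CPM and Slc1a3 at 849 ± 40.5 and 824 ± 44.9 CPM). The same held for 6 oligodendrocyte genes (median 0.14, Mbp at 824 ± 456 and 734 ± 118 CPM), whose spread in the mice labelled LPAR2-/- came with mouse 3. Of 6 microglia genes 0 passed by either tool and 1 had an unadjusted p under 0.05, against 22.4% of all genes (median 0.07, Csf1r at 110.0 ± 9.69 and 99.8 ± 8.82 CPM). Of 6 endothelial genes (median -0.02) Slco1c1, a thyroid hormone transporter of the blood-brain barrier, fell by 0.28 on the log2 scale (72.6 ± 5.36 and 87.9 ± 10.1 CPM, edgeR adjusted p = 0.0230). It passed in 11 of 14 fits without 1 mouse and was lost without mouse 1 labelled LPAR2-/-, WT mouse 2 or WT mouse 5 (highest adjusted p 0.0537).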
